A study of Mus musculus with 4 samples.

Results

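Ube3a, Atp10a, Gabra5 and Gabrg3 are 4 genes of mouse chromosome 7 that lie at and beyond the end of Snhg14 away from Snrpn. Snhg14 is the long antisense transcript of the Snrpn imprinted domain. The 4 genes were taken by name from the 55602 genes in the count table. RNA was sequenced from 4 libraries of neural precursor cells made from the hybrid embryonic stem (ES) cell line JB1, whose mother was of the JF1 strain and whose father was C57BL/6 (B6), so that reads over strain differences could be assigned to the maternal or the paternal allele. The wild-type (WT) line was compared with a Zfp57-/- line derived from it, each with 2 biological replicates, so that each genotype was 1 cell line. ZFP57 is a zinc finger protein that keeps the DNA methylation of imprinting control regions. Cells of both genotypes were kept without serum with a Gsk3 inhibitor, then placed in a defined differentiation medium with 1 μM cyclopamine, an inhibitor of hedgehog signalling, from day 2 to day 10, and collected at day 12.

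UBE3A is a ubiquitin ligase of the HECT type, and loss of its maternal copy in the brain causes Angelman syndrome in humans. In mature neurons Ube3a is read from the maternal allele, because Snhg14, transcribed in the opposite direction from the unmethylated paternal Snrpn promoter, runs across the paternal Ube3a copy and silences it. In most other cell types Snhg14 ends before Ube3a and both copies are active. Atp10a codes for a flippase of the P4-ATPase family, which moves phospholipids across membranes, and Gabra5 and Gabrg3 code for the α5 and γ3 subunits of the GABA-A receptor, the chloride channel opened by the transmitter GABA. The comparison asked whether the allelic balance of Ube3a followed that of Snhg14 where ZFP57 is missing.

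In the GRCm38 build of the files Ube3a (ENSMUSG00000025326.12) spans chr7:59228750-59311536 on the plus strand, with 16 merged exons that cover 20626 bases. Snhg14 (chr7:59307924-59975759) lies on the minus strand, and its last part overlaps Ube3a over 3613 bases, of which 1803 are exonic in both genes. Atp10a (ENSMUSG00000025324.8, chr7:58656166-58829420, plus strand), Gabra5 (ENSMUSG00000055078.7, chr7:57407672-57510059, minus strand) and Gabrg3 (ENSMUSG00000055026.13, chr7:56716465-57387188, minus strand) follow in this order on the side of Ube3a away from Snrpn. A Snrpn promoter and the Ube3a promoter are shown because ZFP57 binds a methylated hexamer, TGCCGC or GGCCGC. Capitals mark each such hexamer on either strand in the 250 bases before and 30 bases after the RefSeq start (GRCm38.p6). The Snrpn window is chr7:60005170-60005449 on the minus strand, at the start, of 4 in RefSeq, that Snrpn shares with Snurf, and the Ube3a window is chr7:59228500-59228779 on the plus strand.
Snrpn: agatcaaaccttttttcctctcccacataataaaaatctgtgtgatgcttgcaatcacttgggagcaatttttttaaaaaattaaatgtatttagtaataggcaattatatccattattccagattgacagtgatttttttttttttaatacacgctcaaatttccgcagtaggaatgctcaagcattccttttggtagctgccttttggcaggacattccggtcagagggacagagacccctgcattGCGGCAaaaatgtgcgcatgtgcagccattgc
Ube3a: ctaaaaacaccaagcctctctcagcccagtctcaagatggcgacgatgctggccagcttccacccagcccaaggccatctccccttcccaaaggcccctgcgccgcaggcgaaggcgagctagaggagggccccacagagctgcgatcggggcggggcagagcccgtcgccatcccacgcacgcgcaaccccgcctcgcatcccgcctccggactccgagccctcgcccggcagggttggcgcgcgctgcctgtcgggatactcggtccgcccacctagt
The Snrpn window held 1 hexamer, TGCCGC on the opposite strand beginning at base 249 of the window, and 5 CpG sites. The Ube3a window held no hexamer and 27 CpG sites, a number reached by 12.6% of the 32851 promoter windows of the same length. Among the other members, the windows of Atp10a and Gabra5 held 1 hexamer each and that of Gabrg3 held none. For the further Snrpn starts, the window at chr7:60140196-60140475 held 1 hexamer. Those at chr7:60047949-60048228 and chr7:60450148-60450427 held none, the last being also the window of Snhg14. Of all those windows 24.7% held at least 1 of the hexamers. The whole Ube3a window also lies within 9330162G02Rik, an annotated transcript of the opposite strand with 1 exon.

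The libraries held between 7663520 and 10337082 counts, and 36.1 to 37.0% of that number could be assigned to an allele. Zfp57 itself had 392 and 249 counts in the WT libraries and 158 and 144 in the Zfp57-/- libraries (log2 fold change -1.19, adjusted p = 0.0225). It was -0.61 without WT replicate 1, and the call was lost without Zfp57-/- replicate 2 (-1.08, adjusted p = 0.0719). Its allelic reads were maternal and paternal in WT (136 and 81, then 99 and 49), while the Zfp57-/- libraries held 0 maternal reads against 82 and 76 paternal ones. The counts cover the whole gene and do not show whether the remaining RNA includes the deleted part. Both genotypes were labelled as neural progenitors, but 9 of 11 neuron markers fell in Zfp57-/- cells and none rose, their summed level going from 1612 to 2066 CPM (scaled counts-per-million) in WT to 188 to 236. Of 10 progenitor markers 6 fell. Over all 19995 genes tested in bulk, 14.6% passed as lower and 13% as higher. All 8 markers of pluripotent cells rose, from a summed 4.21 to 8.01 CPM in WT to 1132 to 1298 CPM in Zfp57-/- cells, while 1 of 8 endoderm and mesoderm markers and 1 of 5 glial markers rose and 2 of each fell, and no marker of these lists was at 0 in all 4 libraries. In such bulk samples fewer cells of a type and less RNA per cell cannot be told apart, and the part of these marker levels in the results that follow was not tested.

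Ube3a was read evenly from its parental alleles in WT and in Zfp57-/- cells, and Snhg14 went from almost wholly paternal towards even. Ube3a was already even in WT, where Snhg14 was almost wholly paternal, so Ube3a had no called bias to lose. A change alike on both copies would not move the share either. The share of Ube3a could therefore show a shift away from even, but not whether Ube3a followed Snhg14 in losing a bias. Ube3a had 450 maternal and 422 paternal reads in WT replicate 1, and 441 and 423 in WT replicate 2. It had 238 and 260 in Zfp57-/- replicate 1, and 316 and 293 in Zfp57-/- replicate 2. The maternal share was therefore 0.516 (95% Wilson interval 0.483 to 0.549) and 0.510 (0.477 to 0.544) in WT, and 0.478 (0.434 to 0.522) and 0.519 (0.479 to 0.558) in Zfp57-/- cells. The WT values lay between the Zfp57-/- values, and the interval of each library included 0.5. These intervals cover counting error only. The mean share was 0.513 ± 0.004 (SD, n = 2) in WT and 0.498 ± 0.029 in Zfp57-/- cells. The genotype-by-allele contrast, the change of the log2 ratio of maternal to paternal reads from WT to Zfp57-/-, was -0.08 for Ube3a (95% interval -0.37 to 0.21, adjusted p = 0.85 with the quasi-likelihood test of edgeR), and 14.5% of the 10977 genes tested passed in that contrast, 10.3% of the genes tested in the paternal direction. Within WT the maternal to paternal ratio of Ube3a was 0.08 on the log2 scale (95% interval -0.11 to 0.27, adjusted p = 0.655), where 23.6% of genes passed, and within Zfp57-/- cells it was near 0 (95% interval -0.22 to 0.21), where 21.8% passed.

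Snhg14 had 31 maternal and 408 paternal reads in WT replicate 1, and 11 and 226 in WT replicate 2. In the Zfp57-/- libraries it had 108 and 174, then 125 and 152. Its maternal share thus rose from 0.0706 and 0.0464 in WT to 0.383 and 0.451 in Zfp57-/- cells, with no overlap between the genotypes. The contrast was 3.44 (95% interval 2.91 to 3.96, adjusted p = 3.18e-20), an interval that lay wholly above that of Ube3a. Within Zfp57-/- cells the log2 ratio was -0.48 (adjusted p = 0.0129), a paternal excess that was not called without Zfp57-/- replicate 1 (-0.28, adjusted p = 0.382). Snrpn, which codes for a spliceosomal protein and holds the imprinting control region at its promoter, had 0 and 2 maternal reads of 131 and 151 in WT and 123 and 112 of 283 and 261 in Zfp57-/- cells. Its contrast was 6.58 (95% interval 5.57 to 7.58, adjusted p = 3.52e-20). Of the 7 domain genes tested, all 7 were paternal in WT, where 9.26% of all genes were, and all 7 passed the contrast in the maternal direction, in which 4.18% of all genes passed. A230057D06Rik and Mkrn3 did not pass it with DESeq2 (adjusted p = 0.808 and 0.196). In Zfp57-/- cells A230057D06Rik had 2 maternal reads of 3 in replicate 1 and 0 of 7 in replicate 2, which stayed wholly paternal. With edgeR the contrast of Mkrn3 was lost without WT replicate 1 (1.97, adjusted p = 0.452) or Zfp57-/- replicate 2 (2.31, adjusted p = 0.173), and that of A230057D06Rik passed without Zfp57-/- replicate 2 only (9.98, adjusted p = 0.000943, against 0.0516 to 1.0 without each other library).

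**Figure D1:**
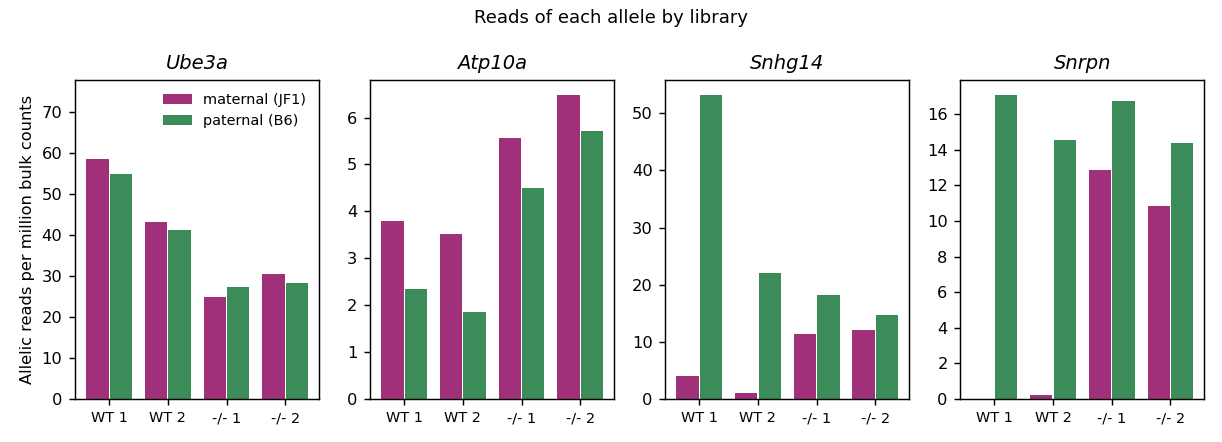
Maternal (JF1) and paternal (B6) reads as RPM (reads-per-million of the bulk total) in each of the 4 libraries, for Ube3a, Atp10a, Snhg14 and Snrpn, each panel with its own axis from 0. Ube3a fell on both alleles, from 43.1 to 58.7 maternal RPM in WT to 24.9 to 30.6 in Zfp57-/- cells, while the maternal reads of Snhg14 went from 1.08 to 4.05 up to 11.3 to 12.1.

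The level of Ube3a was lower in Zfp57-/- cells. It had 3473 and 3634 counts in WT and 2262 and 2642 in Zfp57-/- cells, which was 430 and 347 CPM against 243 and 270 CPM, and the genotypes did not overlap. The log2 fold change was -0.60 (SE 0.20, 95% interval -1.04 to -0.16, adjusted p = 0.0477), that is 1.51-fold lower, in a comparison where 27.6% of 19995 genes passed and 14.6% passed as lower. The call was lost without Zfp57-/- replicate 1 (log2 fold change -0.52, adjusted p = 0.471) or without Zfp57-/- replicate 2 (-0.67, adjusted p = 0.293). Both alleles fell: the maternal reads changed by -0.87 on the log2 scale (95% interval -1.36 to -0.39, adjusted p = 0.0122) and the paternal reads by -0.79 (-1.28 to -0.31, adjusted p = 0.0176). These changes were scaled by the library totals, under which the median gene changed by -0.22 on the maternal and -0.09 on the paternal allele, and 21.4% and 18.5% of genes passed as lower and 9.27% and 14.5% as higher. Scaled with the TMM factors of the bulk table the changes of Ube3a were -0.76 and -0.68. They too were not called without Zfp57-/- replicate 1 (adjusted p = 0.235 and 0.208) or replicate 2 (0.122 and 0.173). Snhg14 changed differently on its alleles. Its maternal reads rose by 2.26 on the log2 scale (95% interval 1.09 to 3.44, adjusted p = 0.00903), and its paternal reads changed by -1.19 (-2.12 to -0.25), which did not pass (adjusted p = 0.0528). The maternal call was lost without Zfp57-/- replicate 1 (adjusted p = 0.129) or replicate 2 (0.135). Without WT replicate 1 the maternal and paternal changes were 3.43 and -0.43, and without WT replicate 2 they were 1.53 and -1.69, the last with an adjusted p of 9.68e-09. Its total level, 91.7 and 40.5 CPM in WT and 53.5 and 44.0 CPM in Zfp57-/- cells, did not pass (log2 fold change -0.43, adjusted p = 0.361), and WT replicate 1 stood above the other 3 libraries. Without that library the log2 fold change of Snhg14 was 0.24, and without WT replicate 2 it was -0.91 with an adjusted p of 5.37e-09.

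**Figure D2:**
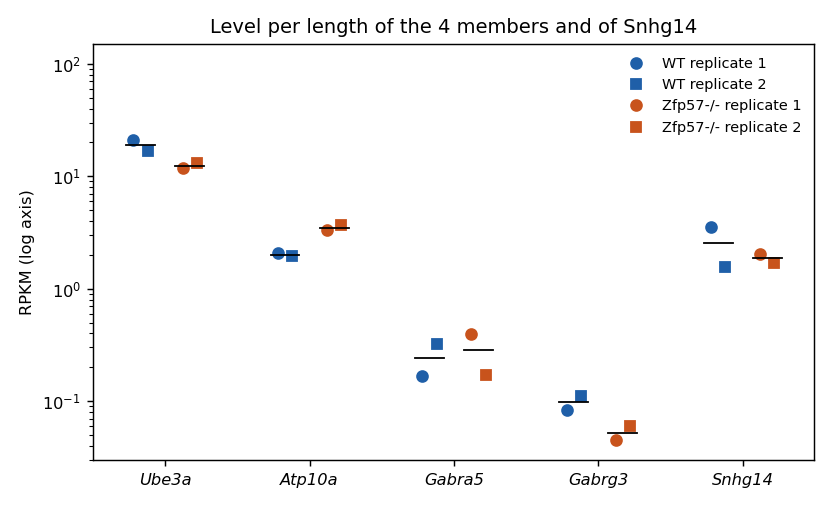
CPM divided by the exon length in kilobases (RPKM, log axis) of the 4 members and of Snhg14, with a point for each library and a bar at the mean of the 2 replicates. Ube3a went from a mean of 18.8 in WT to 12.4 in Zfp57-/- cells and Atp10a from 2.01 to 3.50, while Gabra5 and Gabrg3 stayed under 0.4 in each library.

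Transcripts of the minus strand between Ube3a and Snrpn did not change alike. They were examined because Snhg14 is counted as 1 gene over 65 merged exons, and apart from Snhg14 and Snrpn they were chosen after their values were seen. The library preparation kept the strand and the counting used it, so that Ube3a and these transcripts were counted apart. Snrpn, on the side of Snhg14 away from Ube3a, rose from 33.3 and 34.1 CPM to 65.4 and 59.4 CPM (log2 fold change 0.89, 95% interval 0.46 to 1.32, adjusted p = 0.00764). The call for Snrpn was lost without Zfp57-/- replicate 1 (adjusted p = 0.144) or replicate 2 (0.066). Gm38393 begins beside the Snrpn start shown above and shares 589 exonic bases with Snrpn. It had 747 and 406 counts in WT and 1054 and 1302 in the Zfp57-/- libraries. The log2 change of Gm38393 was 0.91 (95% interval 0.16 to 1.67, adjusted p = 0.0715, and 0.0325 with DESeq2). Without WT replicate 1 this change was 1.64 and without WT replicate 2 it was 0.41, and the adjusted p ranged from 5.36e-25 to 0.146 with each library left out. At the Ube3a end, 9330162G02Rik spans chr7:59223847-59254788 across the Ube3a promoter and shares 1796 exonic bases with Ube3a on the opposite strand. It had 90 and 73 counts in WT and 20 and 18 in Zfp57-/- cells, and fell by 2.17 on the log2 scale (95% interval -3.15 to -1.20, adjusted p = 0.00521). Set against the Ube3a counts of the same library these were 2.59% and 2.01% in WT and 0.884% and 0.681% in Zfp57-/- cells. Its allelic reads were mostly paternal in WT, with a maternal share of 0.273 and 0.182 over 33 reads each (adjusted p = 0.00793), and its 11 and 7 allelic reads in Zfp57-/- cells gave 0.455 and 0.571, with a contrast of 1.76 that did not pass (adjusted p = 0.305). In the same WT libraries the Ube3a reads of the other strand were even.

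A further 19 minus-strand transcripts with at least 1 count over the 4 libraries, most of them short, lie inside Ube3a or Snhg14. Together they had 63 and 40 counts in the WT libraries and 0 in both Zfp57-/- libraries, where 3 counts over the pooled libraries would be 0.157 CPM. Each of them therefore entered through its WT counts alone, and the sums are given as a description, with no fold change. The larger ones were A230103L15Rik with 15 and 11 counts in WT, Gm44560 with 15 and 7, Gm44559 with 8 and 6, and Gm44831 with 8 and 3. Of these, Gm44559 and Gm44560 lie within Ube3a, 34 and 57 kb past its start. These transcripts had few reads also in WT. Most of the neuron markers given above also fell, and a link between them and these transcripts was not tested.

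**Figure D3:**
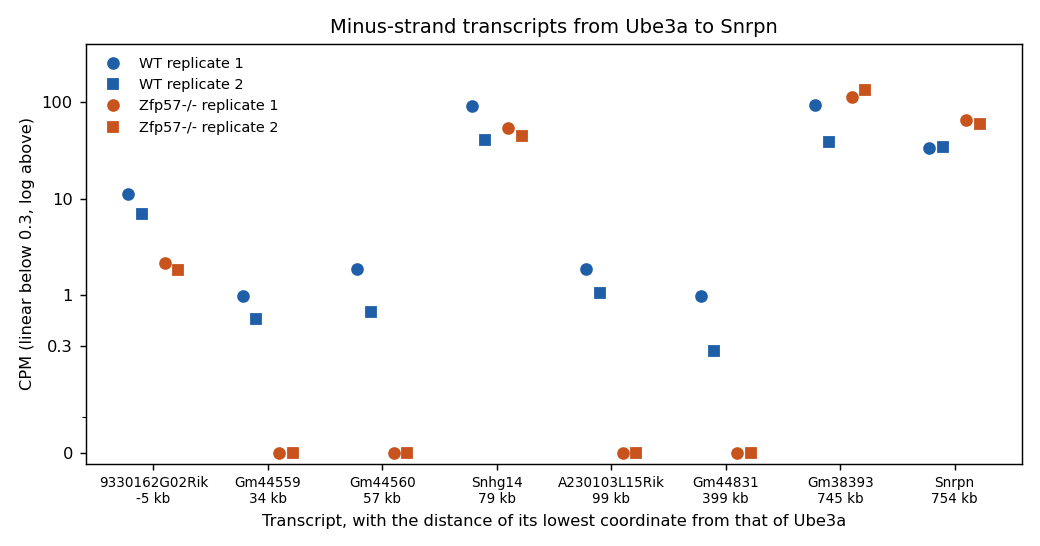
CPM in each library for the 8 minus-strand transcripts between Ube3a and Snrpn with at least 10 counts over the 4 libraries, ordered by distance from the start of Ube3a (vertical axis linear below 0.3 and logarithmic above). Snrpn and Gm38393, at 754 and 745 kb, were highest in Zfp57-/- cells, 9330162G02Rik was lower there in both libraries, and the 4 transcripts at 0 there had reached 10 counts through WT alone.

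Atp10a was higher in Zfp57-/- cells. It had 93 and 115 counts in WT and 174 and 200 in Zfp57-/- cells, or 11.5 and 10.97 CPM against 18.7 and 20.4 CPM, without overlap. The log2 fold change was 0.80 (SE 0.25, 95% interval 0.25 to 1.35, adjusted p = 0.0378), 1.74-fold, where 13% of genes passed as higher. The call was lost with the test of DESeq2 (adjusted p = 0.0798) and without Zfp57-/- replicate 1 (0.235) or replicate 2 (0.341). It had 29 maternal and 18 paternal reads in WT replicate 1 and 36 and 19 in WT replicate 2, then 53 and 43, and 67 and 59, in the Zfp57-/- libraries. The maternal share was 0.617 (95% Wilson interval 0.474 to 0.742) and 0.655 (0.522 to 0.766) in WT against 0.552 (0.453 to 0.648) and 0.532 (0.445 to 0.617). The share was higher in both WT libraries than in both Zfp57-/- libraries, but the contrast of -0.57 (95% interval -1.41 to 0.27) did not pass (adjusted p = 0.504), nor did the maternal excess within WT (log2 ratio 0.81, adjusted p = 0.0742, and 0.038 in the fits that left out either Zfp57-/- library). The paternal reads of Atp10a rose by 1.29 on the log2 scale (95% interval 0.59 to 1.99, adjusted p = 0.00952), and the maternal reads changed by 0.72 (0.08 to 1.37), which did not pass (adjusted p = 0.0861). The paternal call was lost without Zfp57-/- replicate 1 (adjusted p = 0.0564) or replicate 2 (0.125). Of the 2 members in the allele tests 0 passed the genotype-by-allele contrast with edgeR, where 14.5% of all 10977 genes tested passed. At an unadjusted p under 0.05 0 did, and 0 did with DESeq2.

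Gabra5 and Gabrg3 were close to the limit of detection. Gabra5 had 4 and 10 counts in WT and 11 and 5 in Zfp57-/- cells, and the genotypes overlapped. Its log2 fold change was 0.19 (95% interval -1.68 to 2.06, adjusted p = 0.89). Gabrg3 had 8 and 14 counts in WT and 5 and 7 in Zfp57-/- cells, without overlap, and its log2 fold change of -0.89 (95% interval -2.57 to 0.80) did not pass (adjusted p = 0.42). A difference in either gene was not detectable at this depth. Neither had enough allelic reads for the tests. Gabrg3 had 1 and 4 maternal against 4 and 3 paternal reads in WT and 0 maternal against 4 and 5 paternal reads in Zfp57-/- cells, where a share of up to 0.490 and 0.434 lay within the 95% Wilson intervals. Gabra5 had 1 and 6 maternal against 2 and 2 paternal reads in WT, then 3 and 3 against 7 and 2.

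Per length of exon, Ube3a was the highest of the members at 11.8 to 20.8 RPKM over the 4 libraries. Atp10a followed at 1.96 to 3.66, then Gabra5 at 0.166 to 0.397 and Gabrg3 at 0.0449 to 0.112, so that no neighbours in this order overlapped, although Gabra5 and Gabrg3 rested on 14 counts or fewer in each library. The genes nearest to Ube3a in log2 CPM over the 4 libraries, given as a description, were Arhgap5, Plxna1 and Apc, at a root mean square distance of 0.03 to 0.10. For Atp10a they were Ppm1m, Rfx2 and Dnase2a (0.05 to 0.11), for Gabra5 Gm18095, Gm20559 and Gm42939 (0.14 to 0.18), and for Gabrg3 Morf4l1-ps1, Doc2g and 1700113A16Rik (0.14 to 0.19).

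Ube3a lay between genes with a maternal excess and genes with a paternal one in WT cells. Within 5 Mb of Ube3a on either side, 18 genes reported here, Ube3a included, reached 10 or more allelic reads in all 4 libraries. The 6 genes at lower coordinates, Atp10a among them, had a median maternal share of 0.633 in WT and 0.510 in Zfp57-/- cells, and each was higher in WT. The 11 genes at higher coordinates had a median of 0.0311 in WT and 0.417 in Zfp57-/- cells. They included the genes of the Snrpn domain other than A230057D06Rik and Snurf. Of these 11 genes, 10 were at or below 0.33 in WT and 2 in Zfp57-/- cells. Among the flanking genes Cyfip1, which codes for a regulator of actin and of translation, had maternal shares of 0.683 and 0.715 in WT and 0.552 and 0.504 in Zfp57-/- cells (contrast -1.07, adjusted p = 1.5e-08). Tubgcp5 (-0.85, adjusted p = 0.00839) and Nipa2 (-0.79, adjusted p = 0.0206) passed as well, but not without WT replicate 1 (0.24 and 0.499), and Nipa2 also not without Zfp57-/- replicate 2 (0.0804). With DESeq2 the Cyfip1 contrast passed and those of Tubgcp5 and Nipa2 did not (adjusted p = 0.397 and 0.501). With edgeR Herc2 (-0.26, adjusted p = 0.154) and Nipa1 (-0.49, adjusted p = 0.75) did not pass, and Oca2 had too few reads. All 5 of these flanking genes tested were maternally biased within WT, where 14.3% of all genes were, and 0 of 5 were called within Zfp57-/- cells, where 9.37% of all genes were maternally and 12.5% paternally biased. Around Ube3a the median share of the 15 nearest genes outside the listed imprinted ones was 0.5 and 0.455 in WT and 0.481 and 0.5 in Zfp57-/- cells. These 15 still held Gm38393, A330076H08Rik and Gm9801, whose mean shares in WT were 0.031, 0.013 and 0.002. With the next nearest genes in their place the medians were 0.5 and 0.492 in WT and 0.481 and 0.504 in Zfp57-/- cells.

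**Figure D4:**
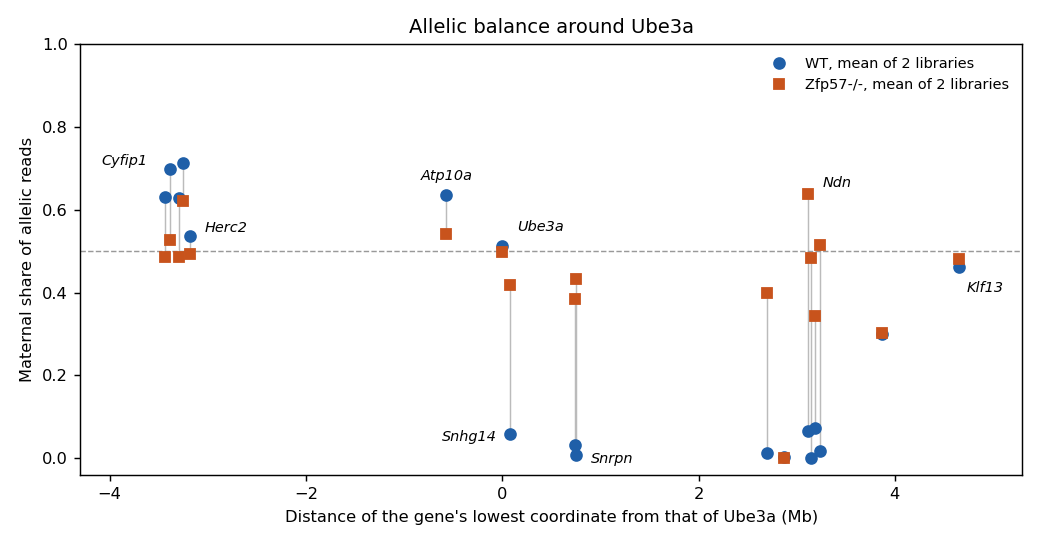
Mean maternal share of allelic reads (n = 2 libraries a genotype) against the distance in Mb of each gene from Ube3a, for the 18 genes within 5 Mb reported here that reached 10 allelic reads in all 4 libraries with grey lines joining the genotypes and a dashed line at 0.5. Ube3a stayed near 0.5 in both genotypes, at 0.513 and 0.498, while Snhg14, 0.079 Mb from its start, went from 0.059 to 0.417.

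Of all genes tested in bulk 13% passed as higher and 14.6% as lower, and the families of the members are set against these shares. Of 13 GABA-A receptor subunits tested and reported here, 6 fell and 0 rose, with a median log2 fold change of -1.67 against -0.01 over all genes. Gabrb2 fell from 7.67 and 7.73 CPM to 0.644 and 0.204 CPM (-4.15 on the log2 scale, adjusted p = 0.000781), and Gabra2 fell from 76 and 53 counts to 0 and 3 (adjusted p = 0.0013). Gabra5 and Gabrg3 were among the 7 that did not pass. Most of the neuron markers given above also fell, and a link between them and the fallen subunits was not tested. Of 15 flippases and CDC50 subunits tested and reported here, 2 rose and 2 fell, with a median of -0.08, and their share called, 26.7%, was close to the 27.6% of all genes. Atp10d, another flippase of the ATP10 group, rose from 22.4 and 18.6 CPM to 40.4 and 38.1 CPM (0.94, adjusted p = 0.00977), and Atp8a2 (-1.16, adjusted p = 0.0176) and Atp8a1 (-0.69, adjusted p = 0.0242) fell. Tmem30a, the CDC50 subunit that many flippases need to leave the endoplasmic reticulum, stood at -0.54 and did not pass (adjusted p = 0.0595). The calls of Atp10d, Atp8a2 and Atp8a1 were lost when either Zfp57-/- library was left out (adjusted p up to 0.128, 0.189 and 0.307).

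Of the 30 HECT-type ligases and partner E2 enzymes, 2 rose and 6 fell, Ube3a among the latter, with a median of -0.13, and the share called, 26.7%, was again close to the 27.6% of all genes. Trip12 rose from 638 and 567 CPM to 1123 and 1098 CPM (log2 fold change 0.88, adjusted p = 0.00743) and Herc4 rose by 0.59 (adjusted p = 0.0427). Hecw1, a ligase of neurons, fell by 3.08 on the log2 scale (adjusted p = 0.000177) and Nedd4l, which acts on membrane channels, fell by 1.49 (adjusted p = 0.000635). The nearest relatives of Ube3a did not pass, Ube3b at -0.02 (95% interval -0.50 to 0.46) and Ube3c at 0.22 (-0.20 to 0.64). Ube2l3, the conjugating enzyme that hands ubiquitin to UBE3A, had 0.35 (adjusted p = 0.361). The calls of Trip12 and Herc4 were lost when either Zfp57-/- library was left out (adjusted p up to 0.13 and 0.382), and those of Hecw1 and Nedd4l were not.

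The paternally expressed genes of the domain were not raised together in total level. Of 7 tested, Snrpn rose and A230057D06Rik, Mkrn3 and Peg12 fell, with a median log2 fold change of -0.43, where 13% of all genes passed as higher and 14.6% as lower. Mkrn3, a ring finger ligase, fell from 23.5 and 13.7 CPM to 7.08 and 6.13 CPM (adjusted p = 0.00854), Peg12 fell from 30.6 and 42.6 CPM to 18.5 and 18.6 CPM (adjusted p = 0.0126), and A230057D06Rik fell from 212 and 88 counts to 17 and 12 (adjusted p = 0.00163). The call of Peg12 was lost when either Zfp57-/- library was left out (adjusted p up to 0.119) and that of Mkrn3 without Zfp57-/- replicate 2 (0.0518). Ndn (-0.42, adjusted p = 0.174) and Magel2 (-0.19, adjusted p = 0.657) did not pass, and Snurf, whose reads overlap other genes of the same strand, had 0 counts. Of the 6 flanking genes reported here Nipa1 (-1.20, adjusted p = 0.0165) fell and none rose, the Nipa1 call being lost when either Zfp57-/- library was left out (adjusted p up to 0.169).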

How the data were processed

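RNA from 2 WT and 2 Zfp57-/- cultures was prepared with a stranded total RNA kit. Reads were trimmed (Trimmomatic 0.36), aligned (STAR 2.5.4a, unique hits kept) and assigned by the authors to GENCODE vM20 genes with featureCounts 1.6.0 using strand (GRCm38). They deposited raw counts per gene, in bulk and, after assignment to strain, per allele. No per-sample column was left unused (0). Columns were matched to libraries by the labels. Gene IDs were matched to symbols for 54721 of 55602 rows.

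Here edgeR 4.0.16 (R 4.3.3; TMM scaling, robust quasi-likelihood test, genes with more than 8 counts over 4 libraries, Benjamini-Hochberg threshold 0.05) compared the genotypes. The allele tests used autosomal genes with at least 10 scaled allelic reads in each WT library and bulk totals as library sizes, with a term for each library in the genotype-by-allele contrast, and a term for each genotype and allele in the changes of single alleles. Shares are means of 2 replicates, with 95% Wilson intervals (scipy 1.17.1). CPM and RPKM were computed from the counts with TMM factors. DESeq2 1.42.0, other scalings and filters, a replicate block and each library left out were tried. The scripts were tested on simulated data.

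Members and lists were chosen with earlier results of these data known. The named genes were the members, the domain and flanking genes, in the other lists the 2 called genes of each direction with the lowest adjusted p, relatives set beside a member, and the 3 genes nearest to each member. Some listed genes are not reported here and were left out of the list counts and the map. Depth was 7663520 to 10337082 counts a library, so genes under about 10 counts were poorly resolved. With 2 cultures of 1 line per genotype, p-values rest on the spread between these cultures, moderated by that of other genes. They do not cover the spread between independent lines. The smallest two-sided p of an exact permutation test of 2 against 2 libraries is 0.333, so values without overlap are given as a description.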

Additional observations from a re-analysis of the deposited data

Results flagged for a closer look

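The genes in this part were picked out because the ratio of their maternal to paternal reads changed between the genotypes by the test of that difference (edgeR genotype-by-allele contrast, Zfp57-/- minus WT, log2). Towards the maternal allele these were Snrpn at 6.58, Snhg14 at 3.44, Gm38393 at 4.35, A230057D06Rik at 7.28, Magel2 at 7.43, Ndn at 4.57, Mkrn3 at 2.93 and Peg12 at 5.87. The value of A230057D06Rik rests on 3 and 7 allelic reads in the Zfp57-/- libraries, 2 and 0 of them maternal, and that of Magel2 on 18 and 19. Towards the paternal allele they were Cyfip1 at -1.07, Tubgcp5 at -0.85 and Nipa2 at -0.79. Ube3a and Atp10a were not among them.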

How the results depend on the processing

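The contrasts of Ube3a and Snhg14 stayed on their side of the threshold in the settings tried. Under DESeq2, other read filters and the replicate block the Ube3a contrast was not called and the Snhg14 contrast was. With each library left out the Ube3a contrast ranged from -0.20 to 0.033, changing sign without Zfp57-/- replicate 1, the ratio within Zfp57-/- cells from -0.13 to 0.11, and the Snhg14 contrast from 3.23 to 3.86. Minus the median of 15 neighbours, the Ube3a share was 0.0360 in WT and 0.0077 in Zfp57-/- cells, and that of Snhg14 -0.419 and -0.0736. With 3 more genes read from 1 allele left out of the neighbours, an alternative chosen after seeing the data, the change of the Ube3a share was -0.0119 and that of Snhg14 0.362.

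Whether the level of Ube3a passed depended on which library was left out. With each library left out its log2 fold change ranged from -0.75 to -0.46, that of its maternal reads from -1.08 to -0.63 and that of its paternal reads from -0.99 to -0.57. The calls were lost without either Zfp57-/- replicate and kept without either WT replicate. Each such fit leaves 1 library for a genotype and takes the spread between replicates from the other genotype. A call kept or lost there therefore follows that spread as well as the size of the change. Genes called ranged from 2831 to 9947 in the bulk comparison, 1152 to 1726 in the genotype-by-allele contrast, 866 to 4613 for the maternal and 1486 to 4804 for the paternal allele, and 1391 to 3040 for bias within WT. DESeq2 called 835 genes in the genotype-by-allele contrast, against 1587 with edgeR, and the cause was not tested. In bulk 2 of the 4 members passed with edgeR, where 27.6% of the 19995 genes tested passed, and Atp10a was lost with DESeq2. Signs also turned with a library left out for Gabra5 (-0.50 to 0.75), for Snhg14 in bulk (-0.91 to 0.24), for Nipa1 in the contrast (-1.29 to 0.45) and for the paternal reads of Snrpn (-0.13 to 0.10), which were 0.092 with TMM factors. Gabrg3 was below the stricter filter.

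Same-numbered libraries deviated together with a correlation of 0.141 over 10105 genes, from 2 pairs without a shared source in the labels. With the replicate block 6984 genes were called in bulk against 5522, the log2 fold change of Ube3a was -0.59 and its contrast -0.08. The block added the calls for the paternal reads of Snhg14 (-1.10, adjusted p = 0.0168) and for Gm38393 in bulk (1.03, adjusted p = 2.27e-05) and changed no other.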
